A study of Mus musculus with 20 samples.

Results

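CD8 T lymphocytes were taken from single-cell RNA-seq libraries of mouse iBAT (interscapular brown adipose tissue), from the immune (Lin+) fraction, and 2098 of the 54289 Lin+ cells kept (3.86%) belonged to them. A kept cell had under 10% of its counts from mitochondrial genes, a total under 15000 and between 300 and 4000 detected genes. It was counted as a CD8 T lymphocyte when its summed values of Cd3d, Cd3e and Cd3g reached 1, its summed values of Cd8a and Cd8b1 reached 1, its Cd4 value was under 0.5 and its summed Cd79a, C1qa and C1qb were under 1. Because these measured values chose the cells, the levels of the genes in the rule are given as a description without a test.

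The study asked how cold and a β3-adrenergic agonist reshape the stromal and immune cells of iBAT, and how deletion of Adrb1 in stromal cells alters the response to cold. Stromal vascular cells were split with magnetic beads that carry antibodies to CD5, CD11b, B220, Gr-1, 7-4 and Ter-119, and the retained Lin+ cells gave 10 libraries, 1 per pool of 3 to 4 mice aged 8 to 14 weeks. CD5 is found on most T cells, and Ter-119 is a marker of red blood cells. The pool is therefore the unit of replication, and p-values measure the spread between pools.

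C57 mice were C57BL/6J males, kept at 24 °C (RT, 2 libraries), exposed to 6 °C for 4 days in single cages without nesting material (COLD, 2 libraries) or infused by osmotic pump for 4 days with CL316,243, an agonist of the β3-adrenergic receptor, at 0.75 nmol per hour (CL, 2 libraries). Mice of the Adrb1 line were females that carried Adrb1 fl/fl and had all received tamoxifen. Those with Pdgfra-CreER -/- are called WT, and those with Pdgfra-CreER +/-, which lose Adrb1 in cells that express Pdgfra when tamoxifen is given, are called KO. Each genotype gave 1 library at RT and 1 after 4 days at 6 °C. In this line the RT libraries were made with version 3 of the Chromium kit and the cold libraries with version 2, which was also used for all C57 libraries. The study states that its treatments were also collected on separate days, so kit, day and temperature cannot be told apart there. Pdgfra marks stromal cells, so the deletion was not aimed at T cells themselves.

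CD8 T cells are lymphocytes that recognise peptides presented by MHC class I molecules and kill infected or transformed cells with granzymes and perforin. Naive CD8 T cells recirculate between blood and lymphoid tissue and express Ccr7, Lef1 and Tcf7, whereas effector and memory cells express the chemokine Ccl5, Nkg7 and granzymes and enter or stay in tissues. Adipose tissue holds resident memory T cells, and T cells respond to type I and type II interferons and to inflammatory cytokines.

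The libraries gave unequal numbers of CD8 T lymphocytes. The C57 RT libraries held 115 and 283, the COLD libraries 130 and 208, and the CL libraries 49 and 244. The WT libraries held 275 at RT and 319 after cold, and the KO libraries 262 at RT and 213 after cold. The first CL library stood apart, with 49 cells and 106679 summed UMIs (unique molecular identifiers, 1 per captured transcript) against 1165250 in the deepest library, KO at RT. The median UMI count of a CD8 T lymphocyte lay between 1474 and 4198 in the 10 libraries.

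The cells matched their label on T cell genes. The summed level of 17 T cell identity genes, among them the T cell receptor constant regions but none of the CD3 chains that the rule used, was 5171 to 9202 CPM (the counts of a gene after the counts of all genes in a library were scaled to the same total), whereas it was 271 to 436 CPM in B cells of the same libraries (Cd79a-expressing cells). The same sum was 2888 to 4847 CPM in NK cells and 5405 to 10710 CPM in CD4 T cells, so it does not tell CD8 from CD4 T cells. Both Cd8a and Cd8b1, the α and β chains of the CD8 co-receptor, were detected in 1398 of the 2098 cells (66.6%). The chain genes lie next to each other on chromosome 6, Cd8b1 at chr6:71322788-71337492 and Cd8a at chr6:71373427-71379171 (RefSeq, GRCm38.p6). Dapl1, a gene of naive CD8 T cells, was found in 17.0% to 26.9% of the cells after each cell was thinned to 800 UMIs, and in no more than 0.112% of B cells. Its share in B cells was 0 in 8 of the 10 libraries, where the number of B cells allowed a share of up to 0.210% to 1.37%. Here and below, the share that a count of 0 allows is 3 counts of the total, and not the exact binomial bound.

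At the threshold, 25 to 109 cells per library had a CD8 sum between 0.5 and 1 and were not counted, the highest at 0.995 to 0.999. No cell had a CD8 sum between 1 and 1.5. The deposited values are UMI counts reduced by an estimate of free RNA, so a single UMI falls just under 1, and the rule in effect asked for 2 UMIs of Cd8a and Cd8b1 together. Thresholds of 0.5 on both the CD3 and the CD8 sum would have kept 2846 cells.

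Some cells carried RNA of other cell types. Between 2.29% (KO at RT) and 36.1% (second CL library) of the CD8 T lymphocytes, 221 in all (10.5%), had a sum of 2 or more over Lyz2, Cst3, H2-Aa, H2-Ab1, H2-Eb1, Cd79b and Ms4a1, which are myeloid, antigen-presenting and B cell genes. The summed level of 4 hemoglobin genes, which belong to red blood cells, was 2.83 to 60.9 CPM in 5 libraries and 3972 to 39560 CPM in the COLD libraries, the second CL library and both cold libraries of the Adrb1 line. In the first COLD library all 929 UMIs of Hbb-bs came from 1 cell. Of the barcodes, 17 also occurred in the Lin- library of the same mice and 83 in another Lin+ library, 2 of them as CD8 T lymphocytes there.

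The share of CD8 T lymphocytes among Lin+ cells did not pass a permutation test between RT and cold, which left out the pairing of libraries. It was lower after cold than at RT within each C57 replicate number and each genotype of the Adrb1 line. It was 2.63% (95% exact binomial interval 2.18 to 3.15) and 5.95% (5.29 to 6.66) in C57 mice at RT and 1.63% (1.37 to 1.94) and 3.25% (2.83 to 3.72) after cold. It was 0.763% (0.565 to 1.01) and 3.98% (3.51 to 4.50) after CL. The intervals cover counting error only, and libraries of 1 group differed by more than these intervals, so that RT, COLD and CL overlapped. Within each replicate number, which marks a shared experiment, COLD and CL lay below RT.

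In the Adrb1 line the share was 8.47% at RT and 3.58% after cold in WT, and 11.4% at RT and 5.59% after cold in KO. Over both lines the mean was 7.12% ± 3.73 at RT and 3.51% ± 1.62 after cold (SD, n = 4 each), a difference of -3.60 percentage points (two-sided exact permutation test, p = 0.171, adjusted p = 0.384 over 11 measures). Within C57 the difference was -1.85 (p = 0.667) and within the Adrb1 line -5.35 (p = 0.333), and 0.333 is the smallest p that an exact test of 2 against 2 libraries allows. CL differed from RT by -1.92 points (exact permutation test, p = 0.667). The median depth differed between libraries, and with each cell thinned to 800 UMIs before the rule was applied the mean was 4.08% ± 1.26 at RT and 3.00% ± 1.29 after cold (n = 4 each), a difference of -1.08 points (exact permutation p = 0.314). Thinned, the share was 4.53% at RT and 3.00% after cold in WT and 5.22% and 4.66% in KO. In C57 mice it was 2.29% and 4.28% at RT and 1.53% and 2.81% after cold. Thinned values were whole numbers, so 1 UMI met the thresholds of 1, whereas the rule without thinning in effect asked for 2. A single UMI of Cd79a, C1qa or C1qb also excluded a thinned cell. The thinned and unthinned differences thus vary in threshold as well as in depth. With thresholds of 0.5 and no thinning the difference was -4.21 points (exact permutation p = 0.143).

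The direction depended on the cells in the denominator. CD8 T lymphocytes per 100 B cells were 11.4 and 21.7 at RT, 32.7 and 34.4 after cold and 13.3 and 16.9 after CL in C57 mice, so both COLD libraries lay above the RT and CL libraries. In the Adrb1 line the ratio was 30.8 in WT at RT, 40.8 in WT after cold, 44.7 in KO at RT and 35.6 in KO after cold, and the cold library was thus higher in WT and lower in KO. Over both lines it was 27.1 ± 14.1 at RT and 35.9 ± 3.50 after cold (exact permutation test, n = 4 each, p = 0.286, adjusted p = 0.384). Among cells that passed the rules for CD8, CD4, B or NK cells, CD8 T lymphocytes made up 18.1% ± 7.30 at RT and 22.5% ± 3.57 after cold (exact permutation test, n = 4 each, p = 0.314, adjusted p = 0.384). Among CD8 plus CD4 T cells they made up 84.4% ± 7.61 at RT and 91.6% ± 4.997 after cold over both lines (exact permutation test, n = 4 each, p = 0.2), and in C57 mice 90.6% ± 3.97 and 88.4% ± 5.68 (n = 2 each).

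**Figure D1:**
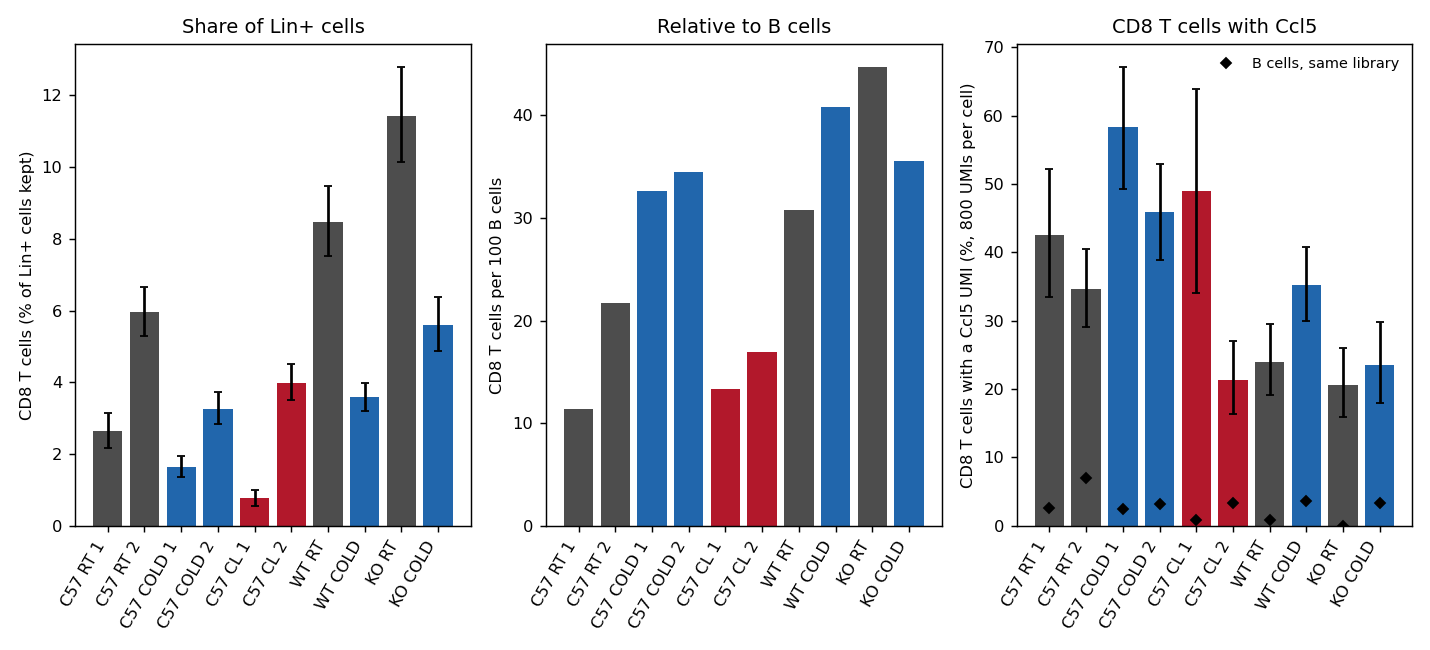
CD8 T lymphocytes in each of the 10 Lin+ libraries, as percent of all Lin+ cells kept, as cells per 100 B cells, and as percent of CD8 T lymphocytes with a Ccl5 UMI after thinning to 800 UMIs (diamonds: B cells), with 95% exact binomial intervals on the percentages and RT in grey, cold in blue and CL in red. The COLD libraries of C57 mice are at 32.7 and 34.4 per 100 B cells, above RT (11.4 and 21.7) and CL (13.3 and 16.9), whereas the shares of Lin+ cells overlap between the groups.

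Cells with and without Ccl5 were found in every library. Ccl5, a chemokine that effector and memory CD8 T cells store as transcript, was found after thinning in 42.6% and 34.6% of the cells of C57 mice at RT, 58.4% and 45.9% after cold and 48.9% and 21.3% after CL. The COLD libraries were above both RT libraries, and the CL libraries spread across them. In the Adrb1 line the share was 24.0% at RT and 35.3% after cold in WT and 20.6% and 23.5% in KO.

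The same share in B cells, which should lack Ccl5, was 0.786% to 6.98% in 9 libraries and 0 of 581 cells in KO at RT, which allows up to 0.516%. The median depth was 829 to 2686 UMIs in B cells and 1474 to 4198 in CD8 T lymphocytes before thinning. Over both lines the Ccl5 share was 30.5% ± 10.1 at RT and 40.8% ± 14.9 after cold (exact permutation test, n = 4 each, p = 0.257, adjusted p = 0.384), and in C57 alone 38.6% ± 5.64 and 52.1% ± 8.84 (n = 2 each, exact permutation p = 0.333). Without thinning the shares ran from 27.1% (KO at RT) to 63.8% (first COLD library).

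Gzmb, the granzyme B gene of armed killer cells, was found in 8.70% and 4.95% of the cells at RT, 25.6% and 19.8% after cold and 8.51% and 0% after CL in C57 mice. The 0 of 244 cells in the second CL library allows a share of up to 1.23%. It was found in 3.27% at RT and 9.62% after cold in WT, in 1.15% and 7.98% in KO, and in at most 0.863% of B cells. Over both lines the share was 4.52% ± 3.19 at RT and 15.8% ± 8.40 after cold (exact permutation test, n = 4 each, p = 0.0571, adjusted p = 0.314), with cold above RT in each of the 3 sets of mice.

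Cell cycle shares were taken over only a part of a list of 16 cell cycle genes. Cells with 2 or more UMIs of this part after thinning made up 9.57% and 8.48% at RT, 21.6% and 15.9% after cold and 23.4% and 7.38% after CL in C57 mice. In the Adrb1 line they made up 6.91% at RT and 15.4% after cold in WT and 4.20% and 11.3% in KO, and in B cells 3.23% to 7.35%. All 4 cold libraries lay above all 4 RT libraries, at 16.0% ± 4.25 against 7.29% ± 2.33 (exact permutation test, n = 4 each, p = 0.0286, the smallest p this test allows, adjusted p = 0.314). The share is a count of transcripts and not a count of dividing cells. The shares with Nkg7 (38.0% at RT and 57.4% after cold, exact permutation p = 0.114), Lef1 (p = 0.2), Dapl1 (p = 0.257) and Ccr7 (p = 0.886) did not pass either, and Ccr7 was at 37.4% to 59.6% in B cells, which also express it.

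Expression was compared with UMIs summed per library over the CD8 T lymphocytes. Values of single genes are CPM of these summed UMIs, scaled by TMM factors unless called unscaled. Sums over several genes, values in other cell classes and values in cells with or without Ccl5 are CPM without TMM factors. Tests are edgeR quasi-likelihood tests with Benjamini-Hochberg adjustment over all genes tested. In C57 mice 20 of 5769 genes (0.347%) passed an adjusted p of 0.05 between COLD and RT, 10 higher and 10 lower. Scaled to library totals without TMM factors the median of all genes was 0.34 on the log2 scale and the calls were 15 higher and 2 lower, and with DESeq2 they were 5 higher and 10 lower. With 2 libraries per group the count rested on each of them: it was 1 without the first and 0 without the second RT library (619 genes at an unadjusted p under 0.05), 6 and 1 without the first and second COLD library, and 282 and 219 without the first and second CL library, which enter the fit for its estimate of the spread. The replicate number marks a shared experiment, and with it as a block 17 genes were higher and 10 lower. The 20 genes were among these, and the interferon-stimulated genes Mx1, Rsad2 and Isg20, the macrophage genes Apoe and Spp1, the chemokine gene Ccl2 and the red cell gene Alas2 were added.

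The genes that rose were led by interferon-stimulated genes, which cells switch on when interferons bind their receptors, and 6 of the 10 belong to a list of 49 such genes. Ifit1 and Ifit3 (inhibitors of viral RNA translation), Isg15 (a ubiquitin-like modifier), Usp18 (the protease that removes Isg15 and dampens interferon signalling), Irf7 (a transcription factor that amplifies the response) and Phf11b made up this group.

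The window from 250 bases before to 50 bases after a transcript start site of each gene (RefSeq promoter table, GRCm38.p6) was searched on both strands for GAAANNGAAA, which reads TTTCNNTTTC on the other strand and is the core of the interferon-stimulated response element. The stretches that held it are shown for the called genes whose window held a match, since the expression test did not use sequence. Each stretch is written 5′ to 3′ on the strand of the gene, with the matches in capitals.
Ifit1, chr19:34640760-34640838, plus strand: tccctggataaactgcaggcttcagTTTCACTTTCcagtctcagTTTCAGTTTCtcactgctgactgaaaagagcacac
Ifit3, chr19:34583348-34583441, plus strand: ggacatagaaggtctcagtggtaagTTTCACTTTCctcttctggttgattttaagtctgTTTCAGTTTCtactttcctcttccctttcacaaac
Isg15, chr4:156200850-156200921, minus strand: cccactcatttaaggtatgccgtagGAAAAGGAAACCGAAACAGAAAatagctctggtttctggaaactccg
Phf11b, chr14:59341346-59341405, minus strand: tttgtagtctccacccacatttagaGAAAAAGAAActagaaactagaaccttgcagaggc

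Start sites here are those of the promoter table, which lie 410 (Ifit3), 58 (Phf11b) and 75 (Irf7) bases inside the outermost start of the gene as given with its coordinates below, and at that start for Ifit1 and Isg15. The matches began 104 and 85 bases before the start site of Ifit1, 156 and 122 bases before that of Ifit3, and 50 bases before that of Phf11b. Isg15 held 3 matches that overlap each other by 4 bases, which begin 78, 72 and 66 bases before its start site. The windows of Irf7, Ms4a7, Cd68 and Sdf2l1 held no match, and windows of Usp18 and Tor3a were not used here. Of the interferon list 24 of 37 genes with a window held a match (64.9%), against 1079 of all 27025 genes with a window (3.99%), 3 of 12 MHC class I genes and 0 of 14 naive genes. Of its tested genes 22 of 35 held one (62.9%), against 218 of 4598 tested genes (4.74%). Of the 10 genes that rose 8 had a window and 4 of these a match, and of the 10 that fell 3 had a window and none a match. A match describes the letters in the window and is not evidence of binding.

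Ifit1 (chr19:34640889-34650009) was at 17.3 and 4.11 CPM at RT, 97.0 and 174.6 after cold and 7.65 and 15.9 after CL. Both COLD libraries lay far above the other C57 libraries, and Ifit1 rose by 4.00 ± 0.53 on the log2 scale (SE, n = 2 libraries per group, edgeR adjusted p = 0.0164). At RT its transcripts came from 1 and 3 cells, and after cold from 16 and 32 cells, so the RT level rests on very few molecules.

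Ifit3 (chr19:34583119-34588982) was at 3.46 and 13.7 CPM at RT, 90.4 and 131.4 after cold and 15.3 and 11.2 after CL, a log2 change of 3.34 ± 0.44 with cold (edgeR, n = 2 libraries per group, adjusted p = 0.0164). Usp18 (chr6:121245906-121270917) was at 10.4 and 8.21 CPM at RT, 72.7 and 95.4 after cold and 7.65 and 11.2 after CL, a log2 change of 3.18 ± 0.41 (adjusted p = 0.0164). For both genes the COLD libraries did not overlap with any RT or CL library. Ifit3 has a close neighbour copy, Ifit3b, and Phf11b belongs to a family of similar genes, so reads of these 2 genes could have been shared with or lost to their copies.

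Isg15 (chr4:156199424-156200818) had the highest counts of the group. It was at 76.1 and 61.6 CPM at RT, 262.3 and 343.8 after cold and 61.2 and 102.0 after CL, and it rose by 2.13 ± 0.29 on the log2 scale with cold (edgeR, n = 2 libraries per group, adjusted p = 0.0164). The transcripts came from 10 and 32 cells at RT and from 32 and 57 cells after cold, with at most 12.3% of them from a single cell in the COLD libraries.

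Irf7 (chr7:141263183-141266499) was at 24.2 and 56.1 CPM at RT, 167.5 and 180.0 after cold and 30.6 and 57.4 after CL, a log2 change of 1.92 ± 0.33 with cold (edgeR, n = 2 libraries per group, adjusted p = 0.0369). Phf11b (chr14:59320964-59341388) was at 41.5 and 49.3 CPM at RT, 136.7 and 158.4 after cold and 61.2 and 60.5 after CL, a log2 change of 1.63 ± 0.26 (adjusted p = 0.0305). The COLD libraries were again above all other C57 libraries.

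The interferon list as a whole lay mostly on the higher side. Its counts include the 6 called genes, and the list was chosen with earlier results of these data known. Of the 49 genes 44 were tested and 6 called higher, where 0.173% of all genes were. 42 of the 44 were higher and 2 lower in COLD, and the median log2 change was 1.16, against 0.01 over all genes tested. Without TMM factors the median was 1.50, with 8 called, and with the replicate block it was 1.19, with 9 called. 33 of the 44 were higher at an unadjusted p under 0.05, where 5.84% of all genes were, and 38 were higher in both COLD libraries than in both RT libraries, where 26.3% of all genes were. Among the genes that missed the adjusted threshold were Mx1, at 6.92 and 6.84 CPM at RT and 39.7 and 63.0 after cold (log2 change 2.84 ± 0.53, edgeR adjusted p = 0.0508), Zbp1 (1.47, adjusted p = 0.0524), Ly6a (2.40, 0.0736) and Rsad2 (2.14, 0.0819). With the replicate block Mx1 (2.90, edgeR adjusted p = 0.0483), Rsad2 (2.23, 0.0443) and Isg20 (2.05, 0.0483) passed. The receptor chains Ifnar1 (0.35), Ifnar2 (0.12) and Ifngr1 (0.27) did not pass the threshold, with adjusted p between 0.737 and 0.926.

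**Figure D2:**
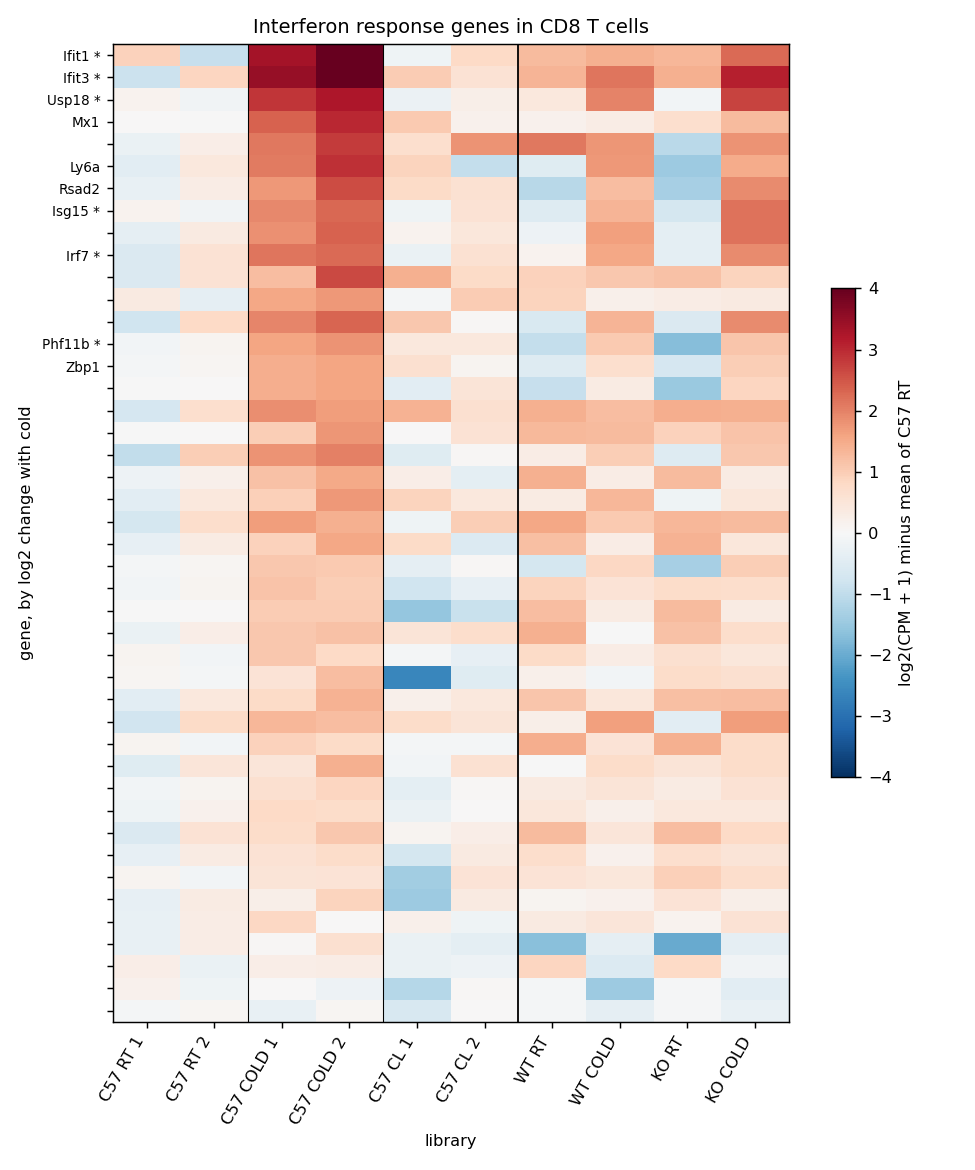
Levels of the 44 tested interferon-stimulated genes in CD8 T lymphocytes of the 10 Lin+ libraries, as log2(scaled CPM + 1) minus the mean of the C57 RT libraries. The colour is limited to 4 units either way. Asterisks mark the 6 called genes, and names are given for these and for Mx1, Zbp1, Ly6a and Rsad2. The COLD columns of C57 mice are above the RT columns for 38 of the 44 genes (26.3% of all genes), and the CL columns for 8 (15.8% of all genes).

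The other 4 genes that rose are not on the interferon list. Tor3a, an ATPase of the endoplasmic reticulum, was at 13.8 and 15.1 CPM at RT and 61.7 and 72.0 after cold (log2 change 2.14, edgeR adjusted p = 0.0409). Sdf2l1, a chaperone component of the same organelle, was at 34.6 and 46.5 CPM at RT and 110.2 and 178.2 after cold (1.74, adjusted p = 0.0443). Cd68 (1.95, adjusted p = 0.0414) and Ms4a7 (2.79, adjusted p = 0.0443) are macrophage genes, and a single cell held 53.9% of the Cd68 UMIs of the first COLD library and 79.8% and 59.8% of the Ms4a7 UMIs of the COLD libraries.

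The genes that fell were Mt2 and 9 ribosomal protein genes or copies of them. Mt2, a metallothionein that binds zinc and copper and responds to glucocorticoids, was at 58.8 and 38.3 CPM at RT and 4.41 and 3.60 after cold, a log2 change of -3.49 ± 0.61 (edgeR, n = 2 libraries per group, adjusted p = 0.0409). Its RT transcripts came from 4 and 5 cells, 1 of which held 76.9% in the first library and 1 86.1% in the second. The ribosomal genes were Rpl27 (-2.58), Rps12 (-2.01) and the copies Rpl36a-ps1 (-2.34), Rps12-ps3 (-2.22), Rpl27-ps3 (-2.06), Rpl13a-ps1 (-2.01), Rpl9-ps6 (-1.97), Rpl10-ps3 (-1.93) and Gm11361 (-1.91), and reads of a gene and its near-identical copy cannot be assigned with certainty. In the RT and COLD libraries of both lines together, fitted with the line as a term, Rpl27, Rpl27-ps3, Rpl13a-ps1 and Rpl10-ps3 were on the higher side.

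RNA of myeloid and dendritic cells was also higher after cold, and it was higher after CL as well. The summed level of 10 macrophage and monocyte genes in the CD8 T lymphocytes was 850.8 and 2340 CPM at RT, 6303 and 5430 after cold and 6154 and 3245 after CL. Of these genes 4 of the 5 that were tested were higher in COLD (median log2 change 1.51), and 1 was called, where 0.173% of all genes were called higher. The 7 dendritic cell genes summed to 2618 and 4887 CPM at RT, 14250 and 8032 after cold and 17890 and 7763 after CL. They had a median log2 change of 1.42 with cold, with 6 of 6 higher, and the 4 hemoglobin genes were all higher with a median of 7.33, with none called. The macrophage sum of the first CL library was near those of the COLD libraries, and that of the second was lower. The 6 called interferon genes summed to 229.3 and 202.4 CPM in the CL libraries, against 151.4 and 169.6 at RT and 903.7 and 1152 after cold. These sums are without TMM factors, by which scaled values are divided. The factors were 0.885 and 0.881 at RT, 1.09 and 1.06 after cold and 1.22 and 0.786 after CL.

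Without the cells that carry such genes, 104 and 259 cells remained at RT, 114 and 192 after cold and 42 and 156 after CL. In this fit 13 of 4602 genes passed, and 5 of the 6 interferon genes did. Ifit3 was then at a log2 change of 3.44 (edgeR adjusted p = 0.0121), Ifit1 at 3.84 (0.0168), Usp18 at 2.91 (0.0180), Isg15 at 2.25 (0.0121) and Irf7 at 1.78 (0.0412), while Phf11b was at 1.82 (0.124). The median of the interferon list was 1.15. Over 14 to 16 alternatives each, the log2 changes of the 6 genes ranged from 0.93 (Phf11b) to 4.96 (Ifit1) and the adjusted p from 4.2e-15 to 0.691.

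In the other Lin+ cells the 6 genes summed to 244.3 and 287.6 CPM at RT and 1709 and 1716 after cold, so that the CD8 T lymphocytes were at 0.529 and 0.671 of that level in COLD, and at 0.177 and 0.167 of it for the macrophage list. For other lists of foreign RNA the ratio was 0.411 and 0.214 (dendritic cell genes), 0.290 and 0.0908 (B cell genes), 0.0896 and 0.296 (neutrophil genes), 0.483 and 1.05 (endothelial genes), 1.34 and 1.19 (natural killer genes) and 1.21 and 0.786 (hemoglobin genes), and from 0.0299 to 0.130 for adipocyte and stromal genes. In the CL libraries the ratio for the 6 interferon genes was 0.337 and 0.400. The part of carried RNA in the interferon level was not tested.

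**Figure D3:**
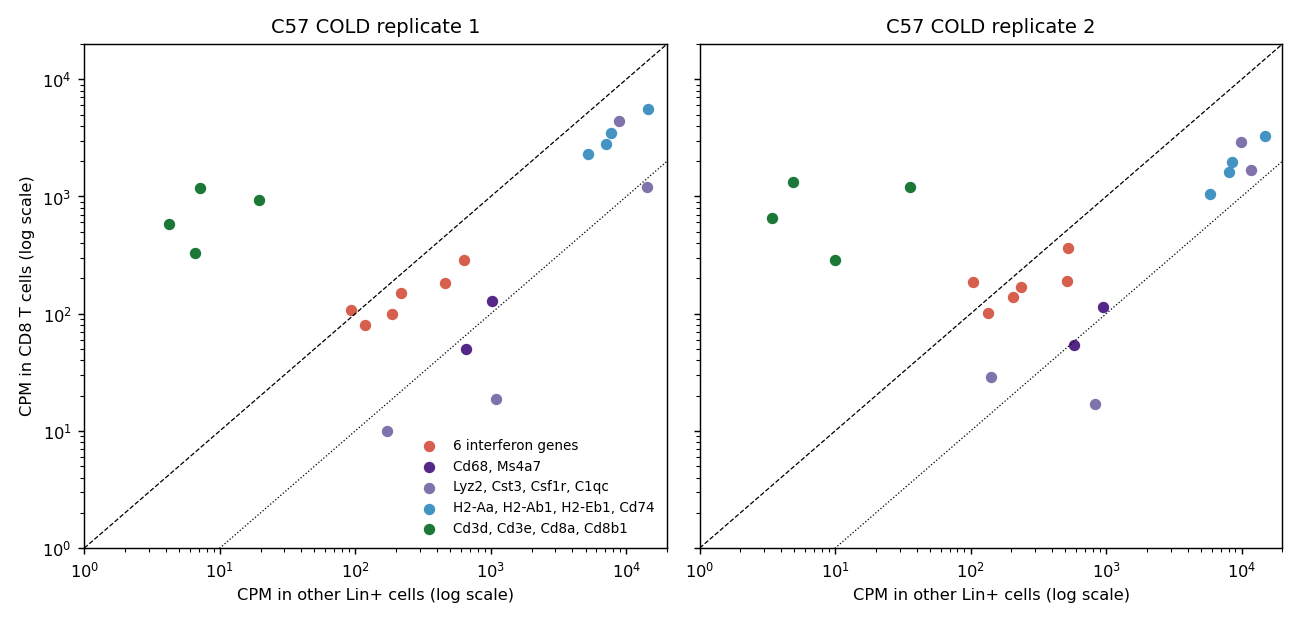
Level of single genes in CD8 T lymphocytes against the level in all other Lin+ cells of the same COLD library, in CPM on log axes, with a dashed line at equal levels and a dotted line at 10-fold lower. Colours stand for the 6 called interferon genes, macrophage genes, MHC class II genes and T cell genes. The interferon genes lie near the dashed line (together at 0.529 and 0.671 of the other cells' level), the T cell genes, which the rule used, far above it, and the macrophage genes between the lines or below the dotted one (0.177 and 0.167 for the list).

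The naive genes were lower after cold, with none past the threshold. Of 17 genes 15 were tested, 14 were lower and 14 did not overlap on the lower side, where 21.8% of all genes did, and 10 were lower at an unadjusted p under 0.05, where 5.63% of all genes were (median log2 change -0.80, or -0.47 without TMM factors). Dapl1 was at 432.5 and 488.6 CPM at RT and 218.2 and 237.6 after cold (-1.06 ± 0.28, edgeR adjusted p = 0.186).

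Igfbp4 (-1.17), Satb1 (-1.10), S1pr1 (-1.08), Lef1 (-0.80) and Tcf7 (-0.76) were on the same side, with adjusted p between 0.217 and 0.478. Klf2, a transcription factor of quiescent T cells, was the exception at 0.20. S1pr1 guides T cells out of lymphoid tissue and Lef1 and Tcf7 are the transcription factors of the naive state. Il6st, a cytokine receptor chain, was at 65.7 and 64.3 CPM at RT and 28.7 and 34.2 after cold (-1.07, adjusted p = 0.219).

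The effector and memory genes were mostly on the higher side, also with none past the threshold. Of 26 tested genes 21 were higher and 15 did not overlap on the higher side, where 26.3% of all genes did (median log2 change 0.53). At an unadjusted p under 0.05 2 were higher and 1 lower, where 5.84% and 5.63% of all genes were. Gzmb (chr14:56258836-56262334) was at 269.9 and 121.8 CPM at RT, 665.7 and 1055 after cold and 206.5 and 7.97 after CL (2.12 ± 0.81 for cold, edgeR adjusted p = 0.348). Ccl5 hardly differed, at 4709 and 4513 CPM at RT and 5061 and 5209 after cold (0.11 ± 0.41, adjusted p = 0.939).

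Gzmk was at 38.1 and 35.6 CPM at RT and 108.0 and 81.0 after cold (1.32, adjusted p = 0.465) and Zeb2, a transcription factor of terminal effector cells, at 17.3 and 41.1 and then 63.9 and 72.0 (1.02, adjusted p = 0.335). S100a4, a calcium-binding protein of memory cells, was on the other side, at 730.1 and 639.1 CPM at RT and 359.3 and 259.2 after cold (-1.19 ± 0.34, adjusted p = 0.210). All 6 tested inhibitory receptors were higher (median 1.15), with Pdcd1, the PD-1 gene, at 24.2 and 17.8 CPM at RT and 147.7 and 34.2 after cold (2.10, adjusted p = 0.318).

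Of the 16 cell cycle genes 15 were higher and 11 did not overlap, where 26.3% of all genes did (median 0.80). At an unadjusted p under 0.05 2 were higher (6 with the replicate block) and 1 lower. Mki67 was at 62.3 and 20.5 CPM at RT and 169.7 and 86.4 after cold (1.80, edgeR adjusted p = 0.404), whereas Pcna, the sliding clamp of DNA replication, was at -0.94. Natural killer receptors had a median of 0.57 (7 tested, 6 higher), tissue residency genes 0.34 (8 tested, 5 higher), heat shock genes 0.51 (11 tested, 10 higher), MHC class I genes 0.18 (14 tested, 12 higher) and T cell identity genes 0.17 (17 tested, 12 higher). T cell activation genes had a median of 0.56 (9 tested, 8 higher), immediate early genes -0.08 (22 tested, 11 higher) and chemokine receptors -0.19 (14 tested, 8 lower). Cytokine receptors had a median of -0.45 (14 tested, 10 lower), and genes of the glucocorticoid response and metallothioneins -0.69 (10 tested, 8 lower, Mt2 called). Among the adrenergic receptors Adrb1 was at most 3.46 CPM and Adrb3, the target of CL, was at 0 in all 10 libraries.

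**Figure D4:**
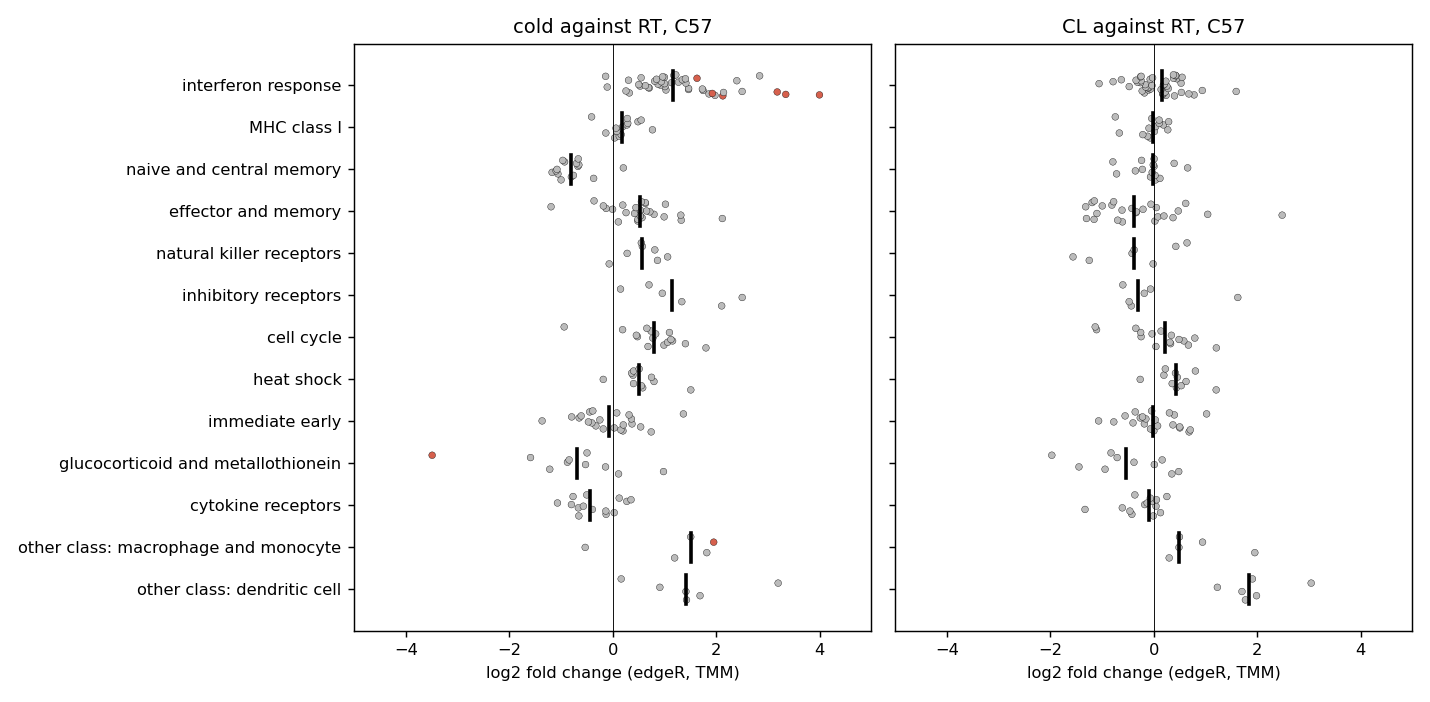
Log2 change of each tested gene by gene list in CD8 T lymphocytes of C57 mice, cold against RT on the left and CL against RT on the right, with red for an adjusted p under 0.05 and a black bar at the median of each list. Interferon genes have a median of 1.16 after cold and 0.16 after CL, and naive genes of -0.80 and -0.01.

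Values were also taken in cells with and without Ccl5 apart, in fits that tested different sets of genes and without a test of the difference. In cells with Ccl5 alone none of 4556 genes passed, with 394 at an unadjusted p under 0.05, and the interferon list had a median of 1.40 and the naive list of -1.16. In cells without Ccl5 8 of 2515 genes passed, and the interferon list had a median of 0.49 over 21 tested genes and the naive list of -0.30. The 6 called interferon genes summed to 215.1 and 221.1 CPM at RT and 1167 and 1484 after cold in cells with Ccl5, and to 64.2 and 125.7 and then 237.0 and 639.9 in cells without it. These sums are a description, since the genes were chosen on this contrast. In cells without Ccl5 single genes overlapped, with Ifit1 at 0 and 6.68 CPM at RT and 0 and 108.2 after cold and Phf11b at 14.3 and 26.0 and then 25.6 and 70.5. The summed level was higher in cells with Ccl5 in each of these 4 libraries, and in CL it was 272.3 CPM with and 147.8 without Ccl5 in the first library and 127.2 with and 251.5 without it in the second. Whether a different mix of states had a part in the changes of all cells together was not tested.

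At the level of cells, 8.70% and 11.3% had a UMI of any of the 6 genes after thinning at RT, 30.4% and 33.8% after cold and 19.1% and 9.43% after CL. In the B cells of the same libraries the shares were 4.69% and 6.90%, 16.4% and 15.7%, and 17.8% and 8.62%. The 6 genes were chosen on this contrast, so these shares are a description. Over the whole interferon list the share of cells with 2 or more UMIs was 66.1% and 66.4% at RT, 77.6% and 73.4% after cold and 78.7% and 65.6% after CL, and 44.6% to 69.9% in B cells of all libraries. In the Adrb1 line it was 80.0% at RT and 71.2% after cold in WT and 73.3% and 69.0% in KO, so that cold lay above RT in C57 mice and below it in this line. Over both lines it was 71.5% ± 6.59 at RT and 72.8% ± 3.67 after cold (exact permutation test, n = 4 each, p = 0.657, adjusted p = 0.723).

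Cold exposure and infusion of CL were compared with RT in the same fit, and no gene passed between CL and RT (0 of 5769, 0%). With edgeR 248 genes had an unadjusted p under 0.05, and DESeq2 also called 0 and gave 90. The interferon list had a median log2 change of 0.16, with 8 of 44 genes higher in both CL libraries than in both RT libraries, where 15.8% of all genes were, and none at an unadjusted p under 0.05. The naive list had a median of -0.01 and the effector list of -0.38.

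By smallest p the genes were Gm15013 (2.42), the hemoglobin genes Hbb-bs (11.8), Hba-a2 (8.71), Hba-a1 (8.21) and Hbb-bt (6.07), Ckb (1.98), the dendritic cell gene Cd209a (1.91) and the ribosomal copies Rpl27-ps3 (-1.42), Rpl13a-ps1 (-1.28) and Rpl10-ps3 (-1.15), all as log2 changes that did not pass. The hemoglobin RNA came from the second CL library, where 48 cells held 5654 UMIs of Hbb-bs, and Hbb-bs was at 0 in the first. All 6 dendritic genes were higher in CL (median 1.84), and 5 of them did not overlap, where 15.8% of all genes did. Without the first CL library 24 genes passed, and without the second 118.

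COLD and CL differed directly in no gene past the threshold either (0 of 5769, 0%), with 336 at an unadjusted p under 0.05 by edgeR and 0 called and 57 at an unadjusted p under 0.05 by DESeq2. All 44 interferon genes were higher in COLD than in CL, 25 of them at an unadjusted p under 0.05, with a median of 1.05, against 0.00 over all genes. Usp18 (log2 difference 2.96, adjusted p = 0.0739), Ifit3 (3.17, 0.0739), Ifit1 (3.22, 0.107) and Isg15 (1.73, 0.131) missed the adjusted threshold. Without the first CL library 205 genes passed, and without the second 19. This comparison and that of COLD with RT share the COLD libraries. The naive genes were all lower in COLD (15 of 15, median -0.73), and 24 of 26 effector genes were higher (median 0.75).

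Other lymphocytes of the same libraries also had higher interferon genes in COLD. The 6 genes summed to 107.0 and 106.7 CPM at RT and 523.2 and 717.2 after cold in B cells, to 160.1 and 148.0 and then 415.7 and 503.9 in NK cells, and to 220.7 and 142.2 and then 2179 and 2498 in CD4 T cells. In CL they were at 348.0 and 206.6 in B cells and 103.6 and 105.9 in NK cells. CD4 T cells numbered 9 to 24 in the C57 libraries with any and 0 in the first CL library, so that library dropped out of the comparison with CD4 T cells. The CD4 T cells carried much RNA of other cells: 7 dendritic cell genes, mostly of MHC class II, summed to 23420 and 16150 CPM at RT and 39900 and 31360 after cold, above the 7692 to 10880 CPM of their 20 T cell identity genes. Their macrophage genes summed to 7381 and 1683 and then 8422 and 4744 CPM. The part of this RNA in their interferon values was not tested.

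The difference between CD8 and CD4 T cells in their response to cold passed for 2 of 5381 genes (0.0372%), Hbb-bs (log2 difference 17.02) and Plac8 (-4.32). Hbb-bs was at 0.446 and 0.877 CPM at RT and 2233 and 3401 after cold in CD8 T lymphocytes and at 0 and 49.5 and then 0.743 and 0 in CD4 T cells (unscaled), so its difference rests on groups near 0, and it was -1.13 with thresholds of 0.5 in the rule. Plac8 was on the higher side after cold in CD4 T cells, at 31.1 and 16.8 CPM at RT and 558.9 and 617.4 after cold, and at 167.1 and 417.6 and then 350.2 and 827.8 in CD8 T lymphocytes in unscaled CPM. None of the 6 interferon genes differed (edgeR adjusted p = 1 for each), with log2 differences from -5.02 ± 3.16 for Ifit1 to -0.81 ± 0.56 for Isg15, all on the side of the class of CD4 T cells with its dendritic cell RNA. In CD4 T cells Ifit1 was at 0 in both RT libraries, and Ifit3, Usp18 and Phf11b were each at 0 in 1 RT library. The differences of these genes thus also rest on levels near 0. The count of 2 was 0 without the first RT library (164 genes at an unadjusted p under 0.05), 10 without the second, 8 and 7 without the first and second COLD library and 1 without the second CL library.

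Against B cells the response differed for 27 of 8151 genes (0.331%), 15 higher and 12 lower in CD8 T lymphocytes. The smallest p among them was that of the neutrophil gene S100a8 (4.31, edgeR adjusted p = 3.77e-05), and S100a9 (3.63), also of neutrophils, and Pf4 (3.94), a gene of platelets and macrophages, differed too. Gzmb (log2 difference 6.63, edgeR adjusted p = 0.000101), Gzma (3.74) and Nkg7 (3.40) were among the higher genes, and in the B cells they stood at 12.3 to 60.9 unscaled CPM at RT and at 0 to 6.93 after cold, so these differences rest in part on B cell levels near 0. Il7r (-3.14), S100a4 (-1.93) and Ly6c2 (-1.84) were among the lower genes, with Il7r at 3.30 and 4.09 CPM at RT and 24.99 and 24.2 after cold in B cells, and the 4 hemoglobin genes had log2 differences of 6.57 to 12.13. Ly6c2 and Ly6a (1.48), which differed as well, are on the interferon list.

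Against NK cells 10 of 5962 genes differed (0.168%). The 4 hemoglobin genes (3.28 to 10.07), Pf4 (4.29), Ctsb (2.85), a lysosomal protease abundant in macrophages, Ftl1 (1.94) and Metrnl (1.92) made up 8 of them, and the other two were Tcf7 (-2.06) and Zeb2 (1.98). Tcf7 was at 252.5 and 282.4 CPM at RT and 210.9 and 186.1 after cold in CD8 T lymphocytes and at 29.2 and 38.3 and then 109.1 and 80.1 CPM in NK cells, all in unscaled CPM. Zeb2 was at 16.5 and 36.3 and then 68.8 and 76.5 in CD8 T lymphocytes and at 115.8 and 150.9 and then 48.5 and 108.5 in NK cells. The 6 interferon genes differed in neither comparison, with edgeR adjusted p of at least 0.892 against B cells and at least 0.743 against NK cells. A p that misses the threshold does not show that the responses were alike.

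**Figure D5:**
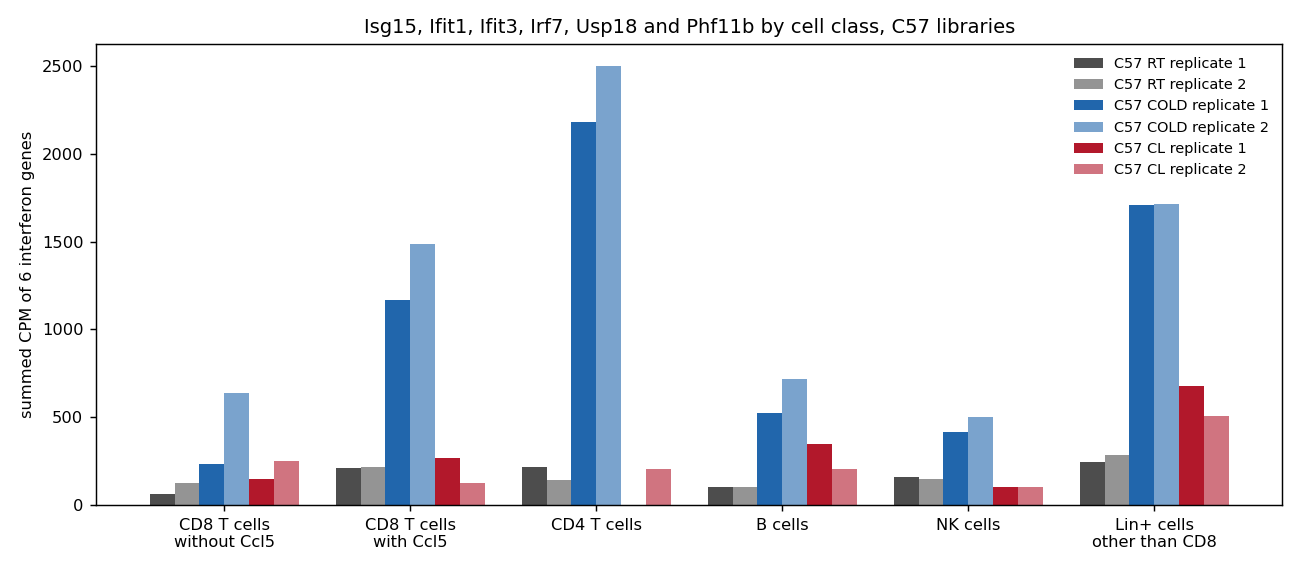
Summed CPM of the 6 called interferon genes in CD8 T lymphocytes without and with Ccl5, CD4 T cells, B cells, NK cells and all Lin+ cells other than CD8 T lymphocytes, with 1 bar per C57 library and no bar for CD4 T cells in the first CL library, which held none. Both COLD bars lie above both RT bars in every class (1167 and 1484 against 215.1 and 221.1 in CD8 T lymphocytes with Ccl5).

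In the Adrb1 line, which the fit of the C57 libraries did not use, all 6 interferon genes were higher in the cold library than in the RT library of the same genotype in TMM-scaled CPM. Without TMM factors Ifit1 in WT was at 24.7 at RT and 23.8 after cold. The summed level of the 6, also without TMM factors, was 186.6 CPM at RT and 463.1 after cold in WT and 149.8 and 703.8 in KO, and the median log2 difference was 1.49 in WT and 2.56 in KO. Isg15 went from 48.1 to 177.5 scaled CPM in WT and from 41.7 to 311.8 in KO, Irf7 from 41.0 to 109.2 and from 27.8 to 140.6, and Ifit1 from 22.1 to 24.8 and from 23.2 to 45.2. With 1 library per genotype and temperature, and with the kit version and collection day changed along with temperature, these are values without a test. The 10 genes called lower in C57 mice lay on the other side in this line: all were higher after cold than at RT in both genotypes, with the exception of Rps12 in KO (51.8 and 50.1 scaled CPM). Mt2 was at 0 at RT in both genotypes and at 12.4 after cold in WT and 6.46 in KO.

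The wider list did not share the direction in this line, with 23 of 44 genes higher in WT (median 0.10, as over all genes at 0.10) and 26 of 44 in KO (median 0.22, all genes 0.06). The naive list had medians of -0.98 and -0.76, the effector list 0.81 and 0.71 and the cell cycle list 1.04 and 1.43. The macrophage list had medians of 3.39 and 2.82 there. When both lines were fitted together with the line as a term, 923 of 7750 genes (11.9%) were called higher after cold. The kit and the collection day cannot be told apart from cold in that fit for the Adrb1 line.

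KO and WT were compared to see whether loss of Adrb1 in Pdgfra-expressing cells altered the CD8 T lymphocytes, over all 10 libraries with line, kit, cold, CL and genotype as terms. Adrb1 itself was at 0 in both WT libraries and in KO after cold and at 0.772 scaled CPM in KO at RT, so these cells, which the Cre does not target, give no check of the deletion. Of 7933 genes 3 passed (0.0378%, 186 at an unadjusted p under 0.05), all higher in KO, and each rested on few cells. Xcl1, a chemokine that CD8 T cells secrete to attract cross-presenting dendritic cells, was at 3.94 scaled CPM at RT and 69.5 after cold in WT and at 111.2 and 534.8 in KO, a log2 difference of 3.45 ± 0.51 (edgeR, n = 2 libraries per genotype, adjusted p = 0.0167). A single cell held 85.5% of its UMIs in KO at RT and 33.9% in KO after cold, and the C57 libraries spanned 44.6 to 255.6 CPM.

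Hmox1, the heme-degrading enzyme, was at 0.789 and 45.9 CPM in WT and 10.8 and 358.7 in KO (3.03 ± 0.40, edgeR adjusted p = 0.00694), and 1 cell held 95.2% of the UMIs in KO after cold. Ccl1, a chemokine of activated T cells, was at 0 in WT and in all C57 libraries and at 24.0 CPM at RT and 168.0 after cold in KO. It was at least 48.8-fold higher in KO than a floor of 3 counts over the WT libraries allows. Its 31 UMIs at RT came from 1 cell, and its 104 UMIs after cold came from 3 cells, 1 of which held 76.0%. With DESeq2 1 gene passed, and in the 4 libraries of the Adrb1 line alone 33 did, 8 higher and 25 lower in KO. The macrophage and monocyte list summed to 360.3 unscaled CPM at RT and 5075 after cold in WT and to 198.4 and 2451 in KO. For the dendritic cell list the sums were 723.9 and 9258 in WT and 344.4 and 4923 in KO. The part of carried RNA in the genotype differences was not tested.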

How the data were processed

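The report rests on the 10 Lin+ libraries. The matrices that the authors deposited hold expected counts: UMI counts obtained with Cell Ranger 3.0.1 on the mm10 build, per the submitters' processing notes, and then reduced by SoupX for free RNA with Fabp4 and Car3 as genes the cells should lack. The cell limits given in the report left 54289 of 67122 Lin+ barcodes. The members and gene lists were chosen with earlier results of these data known. No doublet caller was run, and leaving out carriers of other cell types' genes was an alternative. The study tested single cells with a Wilcoxon test, which was not used because cells of 1 pool are not replicates.

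UMIs were summed per library over the members, rounded and fitted with edgeR 4.0.16 (limma 3.58.1, R 4.3.3) with TMM factors, filterByExpr, glmQLFit and glmQLFTest. The 6 C57 libraries shared 1 fit for cold, CL and RT. Genotype was a term over all 10 libraries beside line, kit, cold and CL. The differences between classes were class by cold terms with the library as a block. CD4 T cells had a CD3 sum and a Cd4 value of at least 1 and a CD8 sum under 0.5. The Benjamini-Hochberg adjustment covered every gene in a fit, with calls at 0.05. Shares were compared over libraries with two-sided exact permutation tests, and shares with a gene were taken after each cell was thinned to 800 UMIs (seed 1), which left out 0 to 7 CD8 T lymphocytes per library, more B cells (219 of 368 remained in the first CL library) and, for the thinned share among Lin+ cells, 72 to 975 cells per library. A CPM value in a plot had 1 added before the log2. The summed UMIs of 106679 to 1165250 per library set the precision, and intervals are exact binomial ones at 95%.

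Named were the 10 called genes with the largest change in each direction whose libraries did not overlap. Fewer than 5 called genes were replaced by the 10 with the smallest p, as values, and list genes were named as examples. Replicates were checked to be separate libraries, where chi-square divided by its degrees of freedom was 2.70 to 7.75 over the summed counts. The alternatives were DESeq2 1.42.0, no TMM factors, no filter, the replicate number as a block, other sets of libraries, leaving out each library, a rule threshold of 0.5, leaving out carriers and, chosen after seeing the data, cells with or without Ccl5, B and NK cells as the compared class, and a lymphocyte denominator. The C57 replicate number marks a shared experiment, per the study's methods, which merged libraries of 1 replicate experiment, and deviations of same-numbered libraries from their group means correlated at 0.0882 to 0.187. The scripts were tested on simulated counts. Python 3.11.15, NumPy 2.4.6, SciPy 1.17.1, pandas 2.3.3 and matplotlib 3.10.9 were used. Some items are not reported here.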

Additional observations from a re-analysis of the deposited data

Results flagged for a closer look

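The share of CD8 T lymphocytes with an Hbb-bs UMI was 0.364% in WT at RT and 0 in the other 3 RT libraries, so this library stood apart in Dixon's test. This is 1 of 275 cells, and beside libraries at 0 any cell with a UMI gives that outcome. The share with a Lyz2 UMI, a macrophage gene, was 4.95% in the second C57 RT library and 1.09% to 1.74% in the other RT libraries. Of the 66 groups of libraries tested in this way these 2 stood apart, where chance gives about 1 in 20.

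The response to cold differed between CD8 and CD4 T cells for Hbb-bs (17.02 on the log2 scale) and Plac8 (-4.32), the former resting on groups near 0. Against B cells it differed for the effector genes Gzmb (6.63), Gzma (3.74), Nkg7 (3.40) and S100a4 (-1.93), for Il7r (-3.14) and for the interferon list genes Ly6c2 (-1.84) and Ly6a (1.48), where the B cells held Gzmb, Gzma, Nkg7 and Il7r at low levels. Against NK cells it differed for Tcf7 (-2.06) and Zeb2 (1.98).

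In the Lin- libraries, which the comparisons did not use, 156 cells passed the same rule, 0.0312% to 0.811% of the cells kept per library.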

How the results depend on the processing

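The difference in the share of CD8 T lymphocytes changed direction with the denominator. Cold minus RT over both lines was 7.25 points of CD8 plus CD4 T cells and 4.47 of CD8, CD4, B and NK cells, and in C57 -2.16 of the former and 7.35 of the latter. CL minus RT was 7.63 points of CD8 plus CD4 T cells. The shares of CD8 plus CD4 T cells rest on 264 CD4 T cells in all, against 1019 with thresholds of 0.5. Leaving out each library gave -5.09 to -2.17 for cold over both lines, -3.50 to -0.190 in C57 and -3.57 to -0.259 for CL. For the Ccl5 share it gave 4.41 to 16.1, 7.27 to 19.8 and, for CL, values that changed sign, from -17.3 to 10.3, with 0.495 without the first RT library.

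The count of 20 genes between cold and RT became 1838 with both lines and a line term, 43 at a rule threshold of 0.5, 200 without a filter, 191 with RT and COLD alone, 13 without carriers, 8 in cells without Ccl5 and 0 in cells with it, and 0 to 282 when each library was left out. DESeq2 called 15, with 3020 adjusted p-values not given, and no TMM factors gave 17. Between CL and RT the count of 0 became 27 without a filter and 0 to 118 when each library was left out. Between cold and CL it became 6 at the threshold of 0.5, 45 without a filter and 0 to 205. Between KO and WT the 3 calls became 33 in the Adrb1 line alone and 1 with DESeq2 and without TMM factors. The 2 calls between CD8 and CD4 T cells became 0 to 10 when each library was left out. The causes were not tested.

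Rpl27 (0.35), Rpl27-ps3 (0.13), Rpl13a-ps1 (0.027) and Rpl10-ps3 (0.30) changed direction with both lines and a line term. The hemoglobin genes in CL against RT changed sign without the second CL library and ranged, over each library left out, from -2.14 to 13.85 (Hbb-bs), -3.51 to 9.78 (Hba-a2), -4.40 to 12.49 (Hba-a1) and -5.50 to 6.995 (Hbb-bt), and at a threshold of 0.5 the CD8 against CD4 differences were -1.13 for Hbb-bs and -2.92 for Hbb-bt. With the replicate number as a block, cold against RT called 27 genes and CL against RT 0. Deviations of same-numbered libraries correlated at 0.107, 0.0882 and 0.187, and the 10 genes higher after cold became 17 in the paired fit. Beside the genes this added, and the cell cycle genes at an unadjusted p under 0.05 (2 to 6), the block changed no call between RT, COLD and CL in C57 mice. It was not run for the other comparisons.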
